A study of Mus musculus with 6 samples.

Results

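The genes described here are the DNA replication genes, a list of 47 genes whose products license replication origins, open and copy the DNA, join the new strands or supply the nucleotides. A gene was a member if its symbol was on that list and a probe set of the array was annotated to it alone, and where several were, the brightest on average stood for the gene. Of the 47, 45 had such a probe set among 12393 genes in all, and 43 were bright enough to be tested among 6761 genes. Gins2 and Chaf1a were not analysed here. Orc1 and Tyms were too dim to be tested, since a test required 2 or more arrays in which the gene exceeded that array's median probe set.

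Each of the 6 arrays measured RNA of high-grade mouse glioma cells. The tumours had been started with neural progenitors of E14 embryos carrying a retroviral vector for a fluorescent reporter and an oncogenic driver, grafted into the brain of adult BALBc mice and collected when symptoms began. In 2 samples the driver was PDGF-B, the B chain of platelet-derived growth factor, and the strain was labelled BALBc. In the other 4 it was EGFRvIII, a truncated and constantly active epidermal growth factor receptor, and the strain was labelled BALBc INK4a -/-, a loss of the gene for the cell cycle inhibitor p16. Driver and INK4a genotype differed together and cannot be told apart in any comparison below. The protocols name DsRed in some fields and EGFP in another as the reporter by which cells were recognised, and mention both culture and cell sorting, and whether samples share a transduced progenitor pool is not stated. Samples sharing a driver are labelled as biological replicates, without saying more.

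DNA replication starts when the origin recognition complex, Cdc6 and Cdt1 load the MCM2-7 helicase on chromatin in G1 phase. The kinase Cdc7 with its activator Dbf4, and the factors Mcm10, Cdc45 and GINS, turn the loaded helicase into moving forks in S phase, where primase, the polymerases and the sliding clamp PCNA copy both strands. Most of these genes are transcribed mainly in late G1 and S phase under E2F transcription factors, so their RNA is widely used as a sign of proliferation in gliomas and other tumours.

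Values are log2 intensities, in the order of the replicate numbers, and a log2 fold change is EGFRvIII minus PDGF-B with its standard error (SE). Levels are never compared between genes, because each probe set has its own affinity. The RNA came from many cells together, so fewer cells in S phase and less RNA in each cell cannot be told apart. The proliferation marker Mki67 lay between 12.55 and 12.66 in all 6 arrays. Cdkn2a, the INK4a gene itself, stood at 6.83 and 6.77 in the PDGF-B arrays and between 3.70 and 3.78 in the EGFRvIII arrays. All 8 oligodendrocyte progenitor markers with a probe set were bright enough to be tested, with array medians of 11.39 to 11.51 in PDGF-B and 11.49 to 11.91 in EGFRvIII cells. None of 10 microglia and macrophage markers, 6 endothelial markers or 8 pericyte and fibroblast markers was, and their array medians lay at or below 5.54. Array medians of 6 astrocyte markers, 3 of them tested, were 6.17 to 6.70 in PDGF-B and 7.27 to 9.02 in EGFRvIII cells, those of 5 mature oligodendrocyte markers (2 tested) 4.31 to 4.53 and 4.64 to 8.28, and those of 6 neuron markers (3 tested) 5.84 to 6.90 and 4.99 to 5.83. None of these marker genes passed the test, and the part of such cells in the values below was not tested. Xist, the RNA of the inactive X chromosome, was 3.85 and 4.46 in EGFRvIII replicates 1 and 2 and between 11.71 and 12.38 in the other 4 arrays, and the Y-linked Kdm5d was 9.40 and 8.97 in those 2 arrays and between 3.39 and 3.58 elsewhere. On these sex-linked genes EGFRvIII replicates 1 and 2 stood apart from the rest, and counts and medians are also given without them or with Xist as a covariate. Single members' values of that kind stand after the roles.

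No DNA replication gene passed the test between drivers, but most had lower measured values in the EGFRvIII arrays. Of the 43 tested genes, 0 reached a limma adjusted p under 0.05 (Benjamini-Hochberg over all tested genes), where 2.23% of all tested genes did. An unadjusted p under 0.05 in either direction was found for 13 of the 43 members and for 1689 of all 6761 tested genes. The log2 fold change was negative in 32 of 43 genes (74.4%), with a median of -0.24 and quartiles of -0.38 and -0.01. Across all tested genes it was negative in 43.5%, with a median of 0.06. The fold changes ran from -0.83 for Mcm10 to 0.41 for Prim2.

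**Figure D1:**
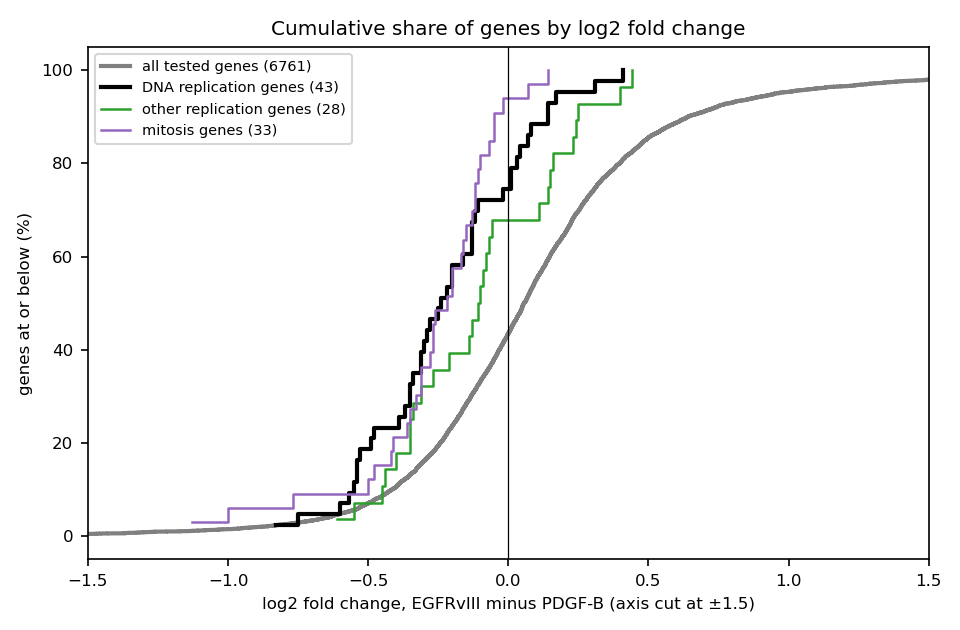
Cumulative share of genes (vertical axis) by log2 fold change, EGFRvIII minus PDGF-B (horizontal axis), for the 43 tested DNA replication genes and for all 6761 tested genes. The curve of the DNA replication genes lies to the left of that of all tested genes, with medians of -0.24 against 0.06. Curves of 28 other replication genes and 33 mitosis genes are also drawn, with medians of -0.10 and -0.22.

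At an unadjusted p under 0.05, 12 members (27.9%) were lower in EGFRvIII cells, against 9.32% of all tested genes, and 1 member (2.33%) was higher, against 15.7%. In 12 members (27.9%) every EGFRvIII array lay below both PDGF-B arrays, which held for 14.9% of all tested genes. The reverse held for 2 members, Pola1 and Prim2 (4.65%), against 22.5% of all tested genes. At an adjusted p under 0.1, 5 members (Mcm10, Dbf4, Cdc7, Pold2 and Prim2) were counted, which is 11.6% against 10.4% of all tested genes, a share near the background. With Xist as a covariate the count of lower members at an unadjusted p under 0.05 was 5, and with only EGFRvIII replicates 3 and 4 it was 4. The share of all tested genes at that p was not counted in those fits. The log2 fold change was negative there in 67.4% and 67.4% of members, against 44.5% and 44.2% of all tested genes. Without PDGF-B replicate 2 it was negative in 62.8% of members and 45.7% of all tested genes. The median log2 fold change was -0.16 without PDGF-B replicate 2, -0.16 without EGFRvIII replicate 1, -0.12 with Xist as a covariate and -0.13 with only EGFRvIII replicates 3 and 4.

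Centring each array on its median moved the median of all tested genes by -0.12, to -0.07. On that scale the log2 fold change was negative in 38 of the 43 members (88.4%) and in 57.4% of all tested genes, and the members' median was -0.37. At an unadjusted p under 0.05, 17 members were then lower and 0 higher. The share of all tested genes at that p was not counted after centring, so these counts have no background. Mcm5, Pold1, Pole, Rpa1, Fen1 and Lig1 had a positive value as deposited and a negative one after centring. Over the 19 alternative settings tried, 23 members stayed negative and 2, Pola1 and Pcna, stayed positive in every one that gave a value. Some of these settings, such as the filters on dim genes, cannot change a member's log2 fold change.

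**Figure D2:**
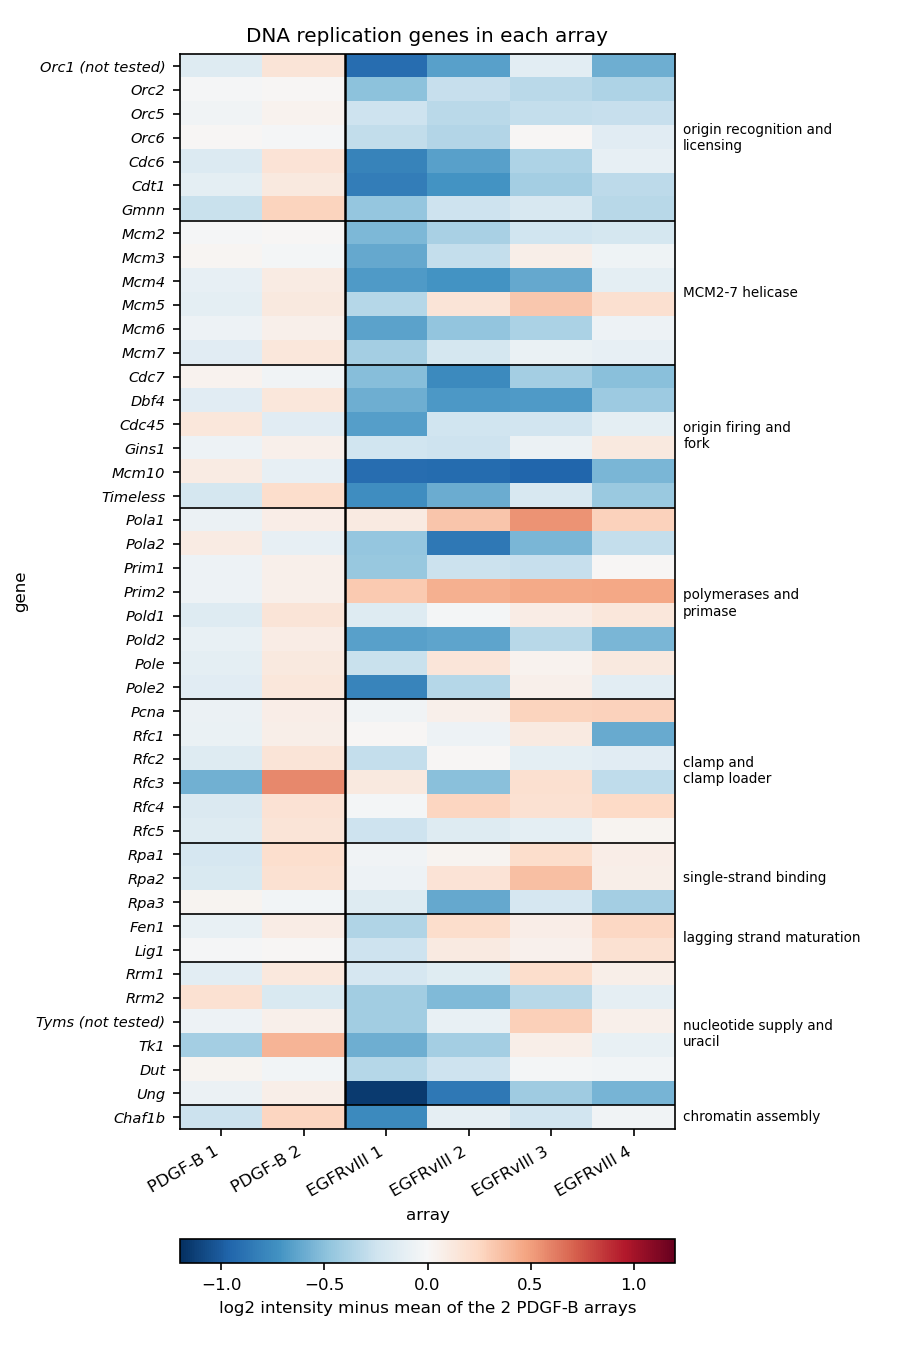
Log2 intensity of each of the 45 DNA replication genes with a probe set minus its mean in the 2 PDGF-B arrays (colour), by array (columns) and gene (rows, grouped by role). Most rows of the licensing, helicase and origin firing groups are below 0 in each EGFRvIII array, the helicase rows more so in replicates 1 and 2. Most clamp, clamp loader and lagging strand rows lie nearer 0, with Rfc3 among the exceptions.

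Promoters are shown for the 5 members with a window among the 6 with the smallest p, namely Mcm10, Dbf4, Cdc7, Pold2 and Ung, and for Mcm6, which held the most E2F matches of any member and whose groups overlapped. Each is the RefSeq window on mouse assembly GRCm38.p6 from 250 bases before to 50 after the transcription start, 5′ to 3′ on the gene's strand. Where a gene had several starts, only the window of the start farthest upstream was kept, here and in the counts of matches below. The windows lie at chr2:5012742-5013041 (minus strand) for Mcm10, chr5:8422667-8422966 (minus strand) for Dbf4, chr5:106964072-106964371 (plus strand) for Cdc7, chr11:5878207-5878506 (minus strand) for Pold2, chr5:114130185-114130484 (plus strand) for Ung and chr1:128359656-128359955 (minus strand) for Mcm6. Capitals mark matches, on either strand, to the E2F core (letters TTCCCGC, likewise the letters TTCGCGC, likewise the letters TTGCCGC and also the letters TTGGCGC), the CCAAT box (CCAAT) and the cell cycle homology region CHR (TTTGAA), and overlapping matches form 1 stretch.
Mcm10: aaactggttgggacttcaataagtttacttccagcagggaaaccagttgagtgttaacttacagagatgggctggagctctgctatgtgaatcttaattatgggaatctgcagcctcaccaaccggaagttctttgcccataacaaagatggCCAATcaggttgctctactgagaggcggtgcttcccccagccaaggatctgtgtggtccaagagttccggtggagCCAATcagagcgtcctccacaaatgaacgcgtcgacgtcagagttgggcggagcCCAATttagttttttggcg
Dbf4: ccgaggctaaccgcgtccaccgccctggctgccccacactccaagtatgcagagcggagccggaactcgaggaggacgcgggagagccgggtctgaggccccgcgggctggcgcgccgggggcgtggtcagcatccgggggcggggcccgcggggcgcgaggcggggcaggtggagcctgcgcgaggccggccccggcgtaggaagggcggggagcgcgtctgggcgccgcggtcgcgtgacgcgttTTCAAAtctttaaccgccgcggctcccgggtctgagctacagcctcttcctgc
Cdc7: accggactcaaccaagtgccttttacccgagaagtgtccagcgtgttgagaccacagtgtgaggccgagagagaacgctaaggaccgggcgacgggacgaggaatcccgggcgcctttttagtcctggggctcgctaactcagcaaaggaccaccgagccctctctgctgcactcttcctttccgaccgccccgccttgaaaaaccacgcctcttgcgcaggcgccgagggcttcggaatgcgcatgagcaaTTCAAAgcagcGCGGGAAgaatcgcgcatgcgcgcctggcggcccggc
Pold2: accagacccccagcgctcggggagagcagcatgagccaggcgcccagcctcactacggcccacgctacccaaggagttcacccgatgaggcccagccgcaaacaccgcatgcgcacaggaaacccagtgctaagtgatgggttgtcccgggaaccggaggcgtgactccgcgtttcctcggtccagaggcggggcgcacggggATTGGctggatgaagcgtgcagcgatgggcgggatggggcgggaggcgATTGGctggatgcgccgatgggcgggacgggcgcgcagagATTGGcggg
Ung: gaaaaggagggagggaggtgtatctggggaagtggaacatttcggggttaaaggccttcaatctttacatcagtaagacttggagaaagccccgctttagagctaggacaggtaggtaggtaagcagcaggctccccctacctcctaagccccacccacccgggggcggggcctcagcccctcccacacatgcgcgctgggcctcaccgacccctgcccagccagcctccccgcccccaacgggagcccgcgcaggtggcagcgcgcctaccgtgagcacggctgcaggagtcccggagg
Mcm6: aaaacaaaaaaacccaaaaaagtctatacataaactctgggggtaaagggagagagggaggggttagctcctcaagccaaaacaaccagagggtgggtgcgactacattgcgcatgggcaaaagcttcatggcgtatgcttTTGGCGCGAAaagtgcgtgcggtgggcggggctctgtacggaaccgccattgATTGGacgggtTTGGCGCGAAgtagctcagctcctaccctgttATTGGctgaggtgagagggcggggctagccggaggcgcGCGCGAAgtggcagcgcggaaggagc

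Mcm10 and Pold2 each held 3 CCAAT boxes. Dbf4 held 1 CHR, and Cdc7 held 1 CHR and 1 E2F core. Ung held no match in this window. Mcm6 held 5 E2F matches in 3 separate stretches, with 2 CCAAT boxes. Of the 39 members with a window, 20 (51.3%) held an E2F core, against 9.72% of all 27025 windows. A CCAAT box was found in 21 (53.8%) against 38.0%, and a CHR in 5 (12.8%) against 18.2%. Of the 11 members with a window that were lower at an unadjusted p under 0.05, 2 held an E2F core, 4 a CCAAT box and 3 a CHR. Of the 26 other tested members with a window the counts were 17, 16 and 2. A match is a description of the letters and not of a factor's binding.

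The 6 tested genes of origin recognition and licensing all had negative log2 fold changes, with a median of -0.34, and 0 passed the test. Cdt1, which brings the helicase to origins, stood at 9.86 and 10.10 in the PDGF-B arrays and at 9.15, 9.26, 9.57 and 9.67 in the EGFRvIII arrays. Every EGFRvIII value of Cdt1 was below both PDGF-B values, and its log2 fold change was -0.57 (SE 0.19, adjusted p = 0.129 in limma). Orc2, a subunit of the origin recognition complex, was 9.17 and 9.20 against 8.69, 8.91, 8.86 and 8.81. These groups did not overlap either, and the log2 fold change was -0.37 (SE 0.12, adjusted p = 0.128).

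Orc5, another subunit of that complex, was 7.15 and 7.24 against 6.95, 6.87, 6.91 and 6.92, a log2 fold change of -0.28 (SE 0.11, adjusted p = 0.179). It had the narrowest spread of the licensing genes among EGFRvIII arrays, with an SD of 0.03. Cdc6, the ATPase that loads the helicase together with Cdt1, was 7.58 and 7.91 against 6.94, 7.09, 7.37 and 7.65. Its EGFRvIII replicate 4 lay above PDGF-B replicate 1, so the groups overlapped, and the log2 fold change of -0.48 had an adjusted p of 0.232. The fold changes of Gmnn, the geminin gene whose product blocks Cdt1 after S phase starts, and of Orc6 were -0.31 and -0.20. The dim Orc1 stood at 5.39 and 5.69 against 4.63, 4.89, 5.41 and 4.95, a measured difference of -0.57 with overlapping groups and no test.

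The MCM2-7 genes, which encode the 6 subunits of the replicative helicase, had a median log2 fold change of -0.28. It was negative in 5 of the 6 and 0 passed the test. Mcm4 was 10.58 and 10.78 in the PDGF-B arrays and 10.00, 9.96, 10.07 and 10.56 in the EGFRvIII arrays. The groups did not overlap, although EGFRvIII replicate 4 came close to PDGF-B replicate 1, and the log2 fold change was -0.53 (SE 0.20, adjusted p = 0.166). Mcm2 was 9.87 and 9.90 against 9.35, 9.50, 9.65 and 9.67, again without overlap, a log2 fold change of -0.34 (SE 0.14, adjusted p = 0.185).

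The probe sets of the helicase genes differed in size. A second bright probe set gave -0.08 for Mcm4 and 0.02 for Mcm2, and those of Mcm6 gave -0.39 and -0.22. The other 4 probe sets of Mcm3 gave -0.81, -0.58, -0.34 and -0.24, and the other 3 of Mcm7 gave -0.61, -0.34 and -0.01. Every EGFRvIII array lay below both PDGF-B arrays for Mcm3 at -0.81 and -0.58 and for Mcm7 at -0.61 and -0.34. Mcm6 was 11.04 and 11.16 against 10.46, 10.63, 10.72 and 11.04, a log2 fold change of -0.39 (adjusted p = 0.237). Mcm7, the brightest probe set of the group, was 11.36 and 11.64 against 11.09, 11.29, 11.42 and 11.40. The groups overlapped, with a log2 fold change of -0.20 and a 95% interval from -0.57 to 0.16. Mcm3 stood at -0.22 on its brightest probe set, and Mcm5 at 0.08 with an interval from -0.41 to 0.58. Mcm5 is the only helicase subunit with a positive value, and it was negative after centring each array. EGFRvIII replicate 1 was the lowest of the 4 EGFRvIII arrays for 5 of the 6 subunits.

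The genes of origin firing and the fork stood lowest of the roles with more than 1 tested member. All 6 tested genes were negative, with a median log2 fold change of -0.52, and 0 passed the test. Mcm10, a fork factor needed to activate the loaded helicase, was 7.59 and 7.40 in the PDGF-B arrays and 6.58, 6.57, 6.54 and 6.95 in the EGFRvIII arrays. The groups did not overlap, and EGFRvIII replicate 4 lay above the other 3. Its log2 fold change was -0.83 (SE 0.16, 95% interval -1.22 to -0.45), or 1.78-fold, the largest difference and the smallest adjusted p (0.0535) of any member. Mcm10 exceeded the array median in 3 of the 6 arrays, both PDGF-B arrays and EGFRvIII replicate 4, and so entered the test through the group where it is high. With a filter on all 6 arrays it was not tested, and the smallest adjusted p of a member was then 0.055, for Dbf4. A second, dimmer probe set of Mcm10 gave -0.44.

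Cdc7, the kinase that phosphorylates the helicase at origins, was 10.09 and 10.01 against 9.54, 9.29, 9.64 and 9.55. No EGFRvIII value reached a PDGF-B value, and the log2 fold change was -0.55 (SE 0.14, adjusted p = 0.0786). Dbf4, its activating subunit, was 9.28 and 9.56 against 8.83, 8.73, 8.74 and 8.98. Again no EGFRvIII value reached a PDGF-B value, and the log2 fold change was -0.60 (SE 0.14, adjusted p = 0.068). A second probe set of Dbf4 gave -0.52. That of Cdc7 gave -0.38, but it exceeded the array median in only 1 array and its groups overlapped.

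Timeless, which stabilises the fork, was 9.22 and 9.65 against 8.69, 8.84, 9.24 and 8.99. EGFRvIII replicate 3 overlapped PDGF-B replicate 1, and the log2 fold change was -0.49 (SE 0.20, adjusted p = 0.190). Cdc45 and Gins1, parts of the active helicase, stood at -0.31 and -0.11, with overlapping groups. With only EGFRvIII replicates 3 and 4, Gins1 was 0.02.

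**Figure D3:**
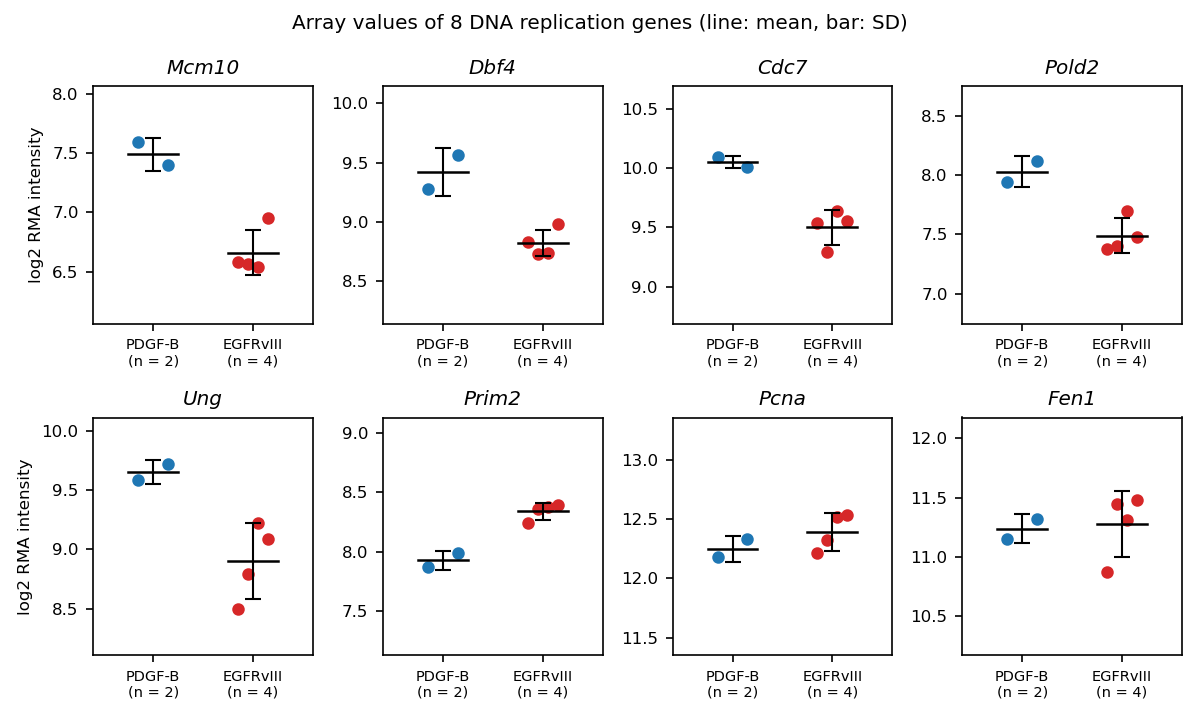
Log2 intensity (vertical axis) in each array for 8 members, with points for arrays, lines for group means and bars for the SD. Mcm10, Dbf4, Cdc7, Pold2 and Ung lie lower in every EGFRvIII array than in either PDGF-B array, and the brightest Prim2 probe set lies higher in every one, whereas the groups of Pcna and Fen1 overlap.

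The 8 polymerase and primase genes did not share a direction: 4 log2 fold changes were negative and 4 positive, with a median of -0.12, and 0 passed the test. Pold2, the small subunit of DNA polymerase delta, was 7.94 and 8.12 in the PDGF-B arrays and 7.38, 7.40, 7.70 and 7.48 in the EGFRvIII arrays. The groups did not overlap, with a log2 fold change of -0.54 (SE 0.14, adjusted p = 0.0883). Pold1, the catalytic subunit of the same enzyme, stood at 0.01 with an interval from -0.35 to 0.36. The test of the difference between the subunits was not made.

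Pola2, the regulatory subunit of polymerase alpha, was 7.88 and 7.68 against 7.32, 6.92, 7.23 and 7.49. The groups did not overlap, and its log2 fold change was -0.54 (SE 0.18, adjusted p = 0.135). A second probe set of Pola2, dimmer than the median in every array, gave 0.09, and the mean of its probe sets gave -0.22. Pola1, the catalytic subunit, was 7.23 and 7.38 against 7.41, 7.64, 7.84 and 7.58, higher in every EGFRvIII array, with a log2 fold change of 0.31 (SE 0.15, adjusted p = 0.258).

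Prim2, the large primase subunit, was 7.87 and 7.99 against 8.24, 8.36, 8.38 and 8.39 on its brightest probe set. That is the one member higher at an unadjusted p under 0.05, with a log2 fold change of 0.41 (SE 0.12, adjusted p = 0.0997). Its other probe set read 7.32 and 7.37 against 6.73, 6.70, 7.12 and 7.28, a difference of -0.39. Both probe sets separated the groups, in opposite directions, so the direction for Prim2 depends on the probe set. Prim1, the small catalytic primase subunit and the brightest probe set of the group, stood at -0.24, with 10.18 and 10.31 against 9.79, 9.99, 9.97 and 10.26. Pole and Pole2, subunits of polymerase epsilon, stood at 0.01 and -0.30.

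The clamp and clamp loader genes lay close together. Their 6 log2 fold changes ran from -0.13 to 0.17 with a median of -0.12, all groups overlapped, and 0 passed the test. Pcna, the sliding clamp that holds polymerases on DNA, was 12.18 and 12.33 in the PDGF-B arrays and 12.21, 12.32, 12.52 and 12.53 in the EGFRvIII arrays. EGFRvIII replicates 3 and 4 were above both PDGF-B arrays and replicates 1 and 2 between them, with a log2 fold change of 0.14 and an interval from -0.21 to 0.48. Rfc4 was 8.46 and 8.81 against 8.61, 8.89, 8.82 and 8.87, a log2 fold change of 0.17 with an interval from -0.20 to 0.53.

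Rfc2 stood at -0.13 (interval -0.48 to 0.22), Rfc1 at -0.13 (interval -0.65 to 0.38) and Rfc5 at -0.12. All are subunits of replication factor C, which loads the clamp. Rfc3, a further subunit, was 7.94 and 9.09 in the PDGF-B arrays, an SD of 0.81, and 8.63, 8.01, 8.71 and 8.21 in the EGFRvIII arrays. With that spread its log2 fold change of -0.13 had an interval from -0.95 to 0.70. In all 6 genes PDGF-B replicate 2 lay above PDGF-B replicate 1.

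Of the single-strand binding protein genes, Rpa3 was 9.13 and 9.06 against 8.94, 8.48, 8.89 and 8.69, lower in every EGFRvIII array, with a log2 fold change of -0.35 (SE 0.16, adjusted p = 0.238). The other subunits of the same trimer had positive log2 fold changes, Rpa1 at 0.07 (interval -0.30 to 0.45) and Rpa2 at 0.14 (interval -0.28 to 0.55), with overlapping groups. None of the 3 passed the test.

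The 2 genes that finish the lagging strand had log2 fold changes near 0, and 0 passed the test. Fen1, the nuclease that trims Okazaki fragment flaps, was 11.15 and 11.32 against 10.87, 11.45, 11.31 and 11.48. Lig1, the ligase that seals the fragments, was 9.64 and 9.67 against 9.41, 9.76, 9.71 and 9.84. In both, EGFRvIII replicate 1 lay below every other array and the groups overlapped. The log2 fold changes were 0.04 for Fen1 (interval -0.43 to 0.51) and 0.03 for Lig1 (interval -0.34 to 0.39), both negative after centring each array.

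The nucleotide supply genes and Ung had 5 negative log2 fold changes of 5 tested, with a median of -0.25, and 0 passed the test. Ung, the glycosylase that removes uracil from DNA, was 9.58 and 9.72 in the PDGF-B arrays and 8.50, 8.79, 9.22 and 9.09 in the EGFRvIII arrays. The groups did not overlap, and EGFRvIII replicates 1 and 2 were lower than replicates 3 and 4. The log2 fold change of Ung was -0.75 (SE 0.22, interval -1.26 to -0.24), or 1.68-fold, with an adjusted p of 0.102.

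Rrm2, the small subunit of ribonucleotide reductase, was 11.76 and 11.40 against 11.16, 11.05, 11.25 and 11.47. The groups overlapped, with a log2 fold change of -0.35 (SE 0.17, adjusted p = 0.252). Rrm1, the large subunit, stood at -0.02 (interval -0.41 to 0.38). Dut, which breaks down dUTP, was 10.38 and 10.32 against 10.01, 10.10, 10.33 and 10.32, a log2 fold change of -0.16 (adjusted p = 0.519). Tk1, the thymidine salvage kinase, was 7.44 and 8.26 in the PDGF-B arrays, an SD of 0.58, and stood at -0.25 with an interval from -0.92 to 0.41. The dim Tyms, thymidylate synthase, was 6.10 and 6.23 against 5.75, 6.08, 6.45 and 6.23, with overlapping groups and no test. Chaf1b, a subunit of the chromatin assembly factor that places histones behind the fork, was 8.13 and 8.65 against 7.63, 8.28, 8.16 and 8.35, a log2 fold change of -0.29 (interval -0.88 to 0.30).

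**Figure D4:**
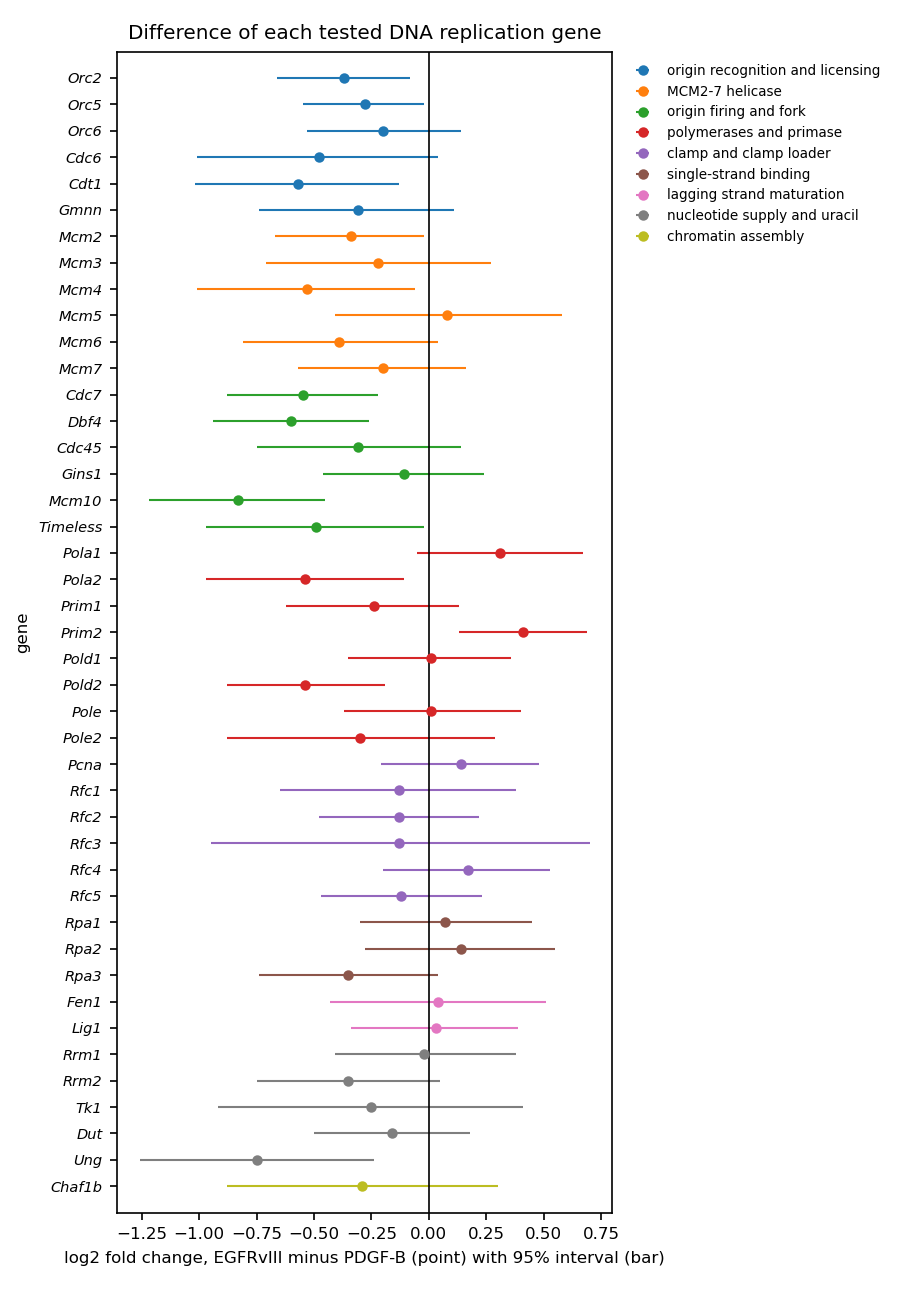
Log2 fold change, EGFRvIII minus PDGF-B, of the 43 tested members with 95% intervals (horizontal axis), grouped by role. Mcm10 is farthest below 0, at -0.83, and Prim2 farthest above, at 0.41.

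The members were not uniform among the arrays of a group. EGFRvIII replicate 1 was the lowest of the 4 EGFRvIII arrays in 31 of 43 members (72.1%), against 20.2% of all tested genes. The highest was replicate 3 in 18 members (41.9%) and replicate 4 in 19 (44.2%), against 30.4% and 17.1% of all tested genes. Relative to the mean of the PDGF-B arrays, the members' median was -0.41, -0.26, -0.12 and -0.10 in EGFRvIII replicates 1 to 4, where all tested genes stood at 0.07, 0.06, 0.08 and 0.01. PDGF-B replicate 2 exceeded replicate 1 in 34 of 43 members (79.1%), against 46.6% of all tested genes. The arrays with low Xist, EGFRvIII replicates 1 and 2, were thus the 2 with the lowest members' medians, and single members' values were therefore also fitted with Xist as a covariate.

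Of the 36 members with a log2 fold change of at least 0.1 in size, 21 moved by over 1.5 times with Xist as a covariate and 15 did not. Among the latter were Mcm10 (-0.74), Dbf4 (-0.56), Cdc7 (-0.46), Pold2 (-0.44), Pola2 (-0.42), Orc2 (-0.35), Orc5 (-0.29), Rpa3 (-0.32), Mcm4 (-0.35) and Prim2 (0.45). Members of several roles came nearer to 0, namely Cdt1 (-0.36), Cdc6 (-0.23), Orc6 (-0.07), Mcm2 (-0.22), Mcm6 (-0.21), Mcm7 (-0.09), Timeless (-0.32), Cdc45 (-0.15) and Prim1 (-0.12). The same held for Pole2 (-0.03), Ung (-0.49), Rrm2 (-0.21), Tk1 (-0.02), Dut (-0.02), Chaf1b (-0.13) and Rfc5 (-0.04), while Mcm3 (0.02) and Gins1 (0.02) crossed it. Rfc1 (-0.27), Pcna (0.27) and Rpa2 (0.21) lay farther from 0 than without the covariate.

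The PDGF-B arrays also moved single members, since each is 1 of 2. Leaving out PDGF-B replicate 1 moved 14 of the 36 by over 1.5 times, and leaving out replicate 2 moved 16. Without replicate 1 and without replicate 2, in that order, Gmnn stood at -0.58 and -0.05, Chaf1b at -0.55 and -0.03, and Mcm7 at -0.34 and -0.06. Likewise Timeless stood at -0.71 and -0.28, Cdc6 at -0.65 and -0.32, Pole2 at -0.44 and -0.16, Tk1 at -0.67 and 0.16, and Rfc3 at -0.70 and 0.45. Rrm2 and Cdc45 went the other way, at -0.17 and -0.53 for Rrm2 and at -0.17 and -0.45 for Cdc45. Leaving out EGFRvIII replicate 1 moved 11 of the 36, and replicates 2, 3 and 4 moved 2, 3 and 3.

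**Figure D5:**
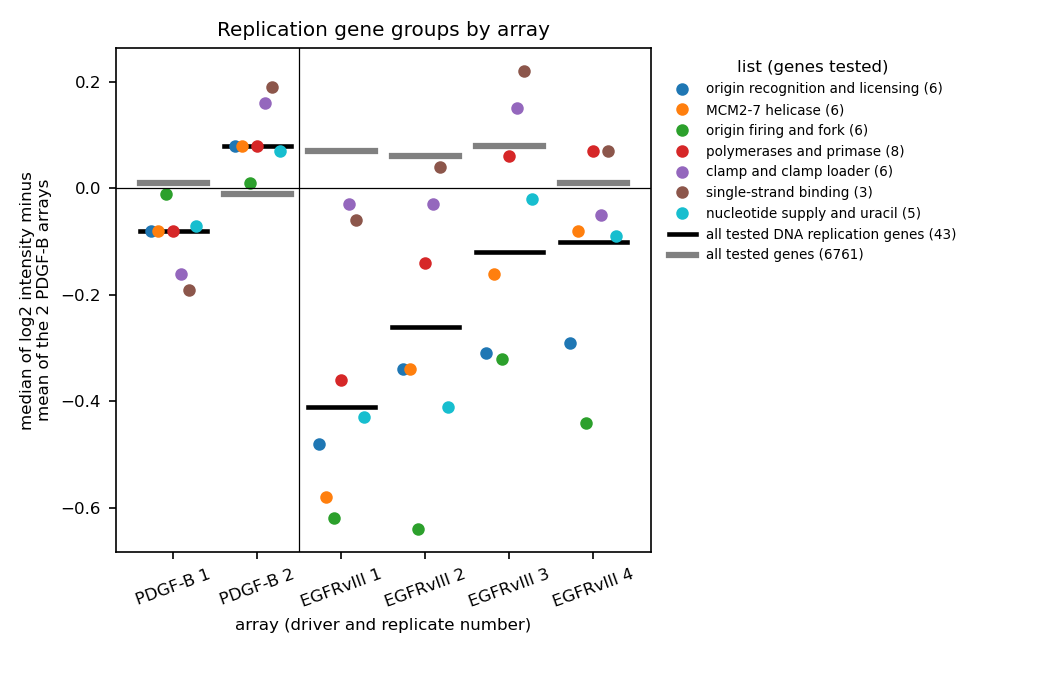
Median of log2 intensity minus the mean of the 2 PDGF-B arrays (vertical axis) in each array, for role groups of at least 3 tested members (points), all 43 tested members (black bars) and all 6761 tested genes (grey bars). The members' median is lowest in EGFRvIII replicate 1, at -0.41, and is -0.10 in replicate 4.

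The choice of probe set matters for several members. The 45 members had 80 probe sets, 20 members having 1 and 25 several. Of 26 bright second probe sets, which belonged to 18 members, 19 had the same sign as the brightest one and 7 the opposite. The opposite ones belonged to Mcm2, Prim2, Rfc1, Rpa1, Rpa2 and Rrm2. Over all 69 bright probe sets of members, 52 (75.4%) were negative, against 44.8% of all bright probe sets with a gene name. The brightest sets of Mcm4, Mcm6, Pold1, Fen1 and Rrm2 are of the platform's type that may cross-hybridise with similar transcripts, so their values are less certain.

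Other proliferation genes gave a comparison. Of 28 tested further replication genes 19 had negative log2 fold changes, with a median of -0.10, and 0 passed the test. The smallest p values were those of Wdhd1, a replisome scaffold, at -0.61 (adjusted p = 0.0948), and Supt16, a subunit of the histone chaperone FACT, at -0.55 (adjusted p = 0.112). Of 33 tested mitosis genes 31 were negative, with a median of -0.22, near that of the DNA replication genes. Nek2, a centrosome kinase, fell by 1.13 (adjusted p = 0.0147) and Foxm1, a transcription factor of G2 and M phase genes, fell by 1.00 (adjusted p = 0.0356). The mean of Nek2 was 7.96 in PDGF-B and 6.83 in EGFRvIII cells, whose array medians ran from 6.69 to 6.83. Nek2 thus lay near the median in the EGFRvIII arrays, and the PDGF-B arrays alone were enough for it to enter the test. With a filter on every array Nek2 was not tested, whereas Foxm1 was (adjusted p = 0.0259). The adjusted p was 0.108 for Nek2 and 0.148 for Foxm1 without PDGF-B replicate 1, 0.0889 and 0.143 without PDGF-B replicate 2, and 0.0625 and 0.085 without EGFRvIII replicate 1. For Foxm1 it was also above the threshold without EGFRvIII replicate 3 (0.0546) or 4 (0.0534) and on averaging all of its probe sets, where the log2 fold change was -0.33 (0.256). With Xist as a covariate it was 0.106 for Nek2 and 0.139 for Foxm1. EGFRvIII replicate 1 was the lowest of its group in 9 of the 28 further replication genes (32.1%). It was the lowest in 11 of the 33 mitosis genes (33.3%), and replicate 3 was in 12. Both shares for replicate 1 were below the 72.1% among the DNA replication genes, a difference that was not tested. PDGF-B replicate 2 exceeded replicate 1 in 39.3% of the further replication genes and 69.7% of the mitosis genes, against 79.1% of the DNA replication genes.

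Among 22 tested regulators of the step from G1 to S phase, 16 were negative, with a median of -0.17, and 2 passed the test. Cdkn2a fell (adjusted p = 0.00021). It is the INK4a gene, labelled -/- in the EGFRvIII samples, so this call is a check on the label. No fold is given for Cdkn2a, because it exceeded the array median only in the PDGF-B arrays and its EGFRvIII values were far below it. Cdkn1a, the p21 inhibitor of cyclin-dependent kinases, rose by 2.73 (SE 0.38, adjusted p = 0.0331), from a mean of 6.08 ± 0.40 (SD, n = 2) to 8.80 ± 0.60 (SD, n = 4). Its PDGF-B mean lay below the PDGF-B array medians, both 6.65, so it entered the test through the EGFRvIII arrays and the difference is one from a dim level. Its adjusted p was 0.139 and 0.143 without PDGF-B replicates 1 and 2, 0.074, 0.0517 and 0.0625 without EGFRvIII replicates 1, 3 and 4, and 0.139 with Xist as a covariate, with log2 fold changes between 2.44 and 3.17 over all alternatives. That of Cdkn2a was 0.0567 with a trended robust variance.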

How the data were processed

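RNA of glioma cells was amplified, biotin labelled and hybridised, 1 array per sample. The authors deposited log2 intensities of each probe set. Per the submitters' processing notes, RMA and affy 3.4.2 were used, and values from 2.22 to 14.40 show the log base. Both deposited tables held the same values to within 5e-09. Each array held 22690 probe sets, 64 of them controls. Of the rest, 20380 had 1 gene symbol in the platform annotation, 691 several and 1555 none, and Entrez identifiers gave 20351 a current symbol. EGFRvIII arrays were compared with PDGF-B arrays in limma 3.58.1 (R 4.3.3, lmFit and eBayes, two-sided, residual degrees of freedom 4, prior 2.81) without covariate. Genes were called at an adjusted p under 0.05 over all 6761 tested genes. The fit was tested on simulated data. Members and lists were chosen with earlier results of these data known. Named in each role were the brightest member and the 3 with the smallest p, every member too dim to test, and of other lists the called genes or the 2 with the smallest p. Further members are named as values, chosen after they were seen. Promoter windows came from RefSeq. Alternatives covered scaling, dim-gene filters, choice of probe set, variance model, replicate numbers, Xist and left-out arrays. The number of arrays limits the precision. Figures were drawn with matplotlib 3.10.9.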

Additional observations from a re-analysis of the deposited data

Results flagged for a closer look

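Of 55 values tested in the 4 EGFRvIII arrays, each member's level and each role's mean among them, 2 had an array far from the other 3. Chance gives about 1 in 20, so 2 is no more than chance gives. The level of Mcm10 in EGFRvIII replicate 4 was 6.95, and the others lay between 6.54 and 6.58. The mean level of the clamp and clamp loader genes in EGFRvIII replicate 3 was 9.36, and the others lay between 9.19 and 9.21.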

How the results depend on the processing

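The median log2 fold change of the members was negative under all 19 alternatives, and 759 of 812 alternative values of single members had the same direction and side of the threshold. The other deposited table, the dim-gene filters and the trended robust variance cannot change a member's log2 fold change, so its direction was fixed there. No member passed the test as deposited. With the probe set of largest spread 1 did (Mcm10, adjusted p = 0.0486), and at an adjusted p under 0.1, 5 did. The count of all genes called, 151, was 77 with no filter on dim genes, 265 with a filter on all 6 arrays, 257 with the probe set of largest spread, 254 with a trended robust variance, 3 with Xist as a covariate, 16 with only EGFRvIII replicates 3 and 4, 5 at an adjusted p under 0.01 and 706 at 0.1. Leaving out EGFRvIII replicates 1 to 4 singly gave 15, 155, 96 and 23, in that order. Leaving out a PDGF-B array leaves 1 array in that group, and no count is given for it. The causes of these changes were not tested.

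Replicate numbers pair the arrays by number only, with 2 pairs. Correlations of deviations were 0.20 and 0.25 for the same numbers and -0.20 and -0.25 for different numbers. The deviations of the 2 PDGF-B arrays are exact opposites, so the negative values only mirror the positive ones. Whether the numbers pair the arrays was not tested. EGFRvIII replicates 3 and 4 have no PDGF-B partner, so a fit with the replicate block takes the difference from replicates 1 and 2 only. Those are the EGFRvIII arrays with low Xist and the lowest members' medians, -0.41 and -0.26. With the replicate block the adjusted p of Nek2, Foxm1 and Cdkn1a was 0.0982, 0.0995 and 0.115. In that fit 9 genes and 0 members were called, the members' median was -0.36, and Mcm5 (-0.10), Pold1 (-0.10), Pole (-0.06), Fen1 (-0.08) and Lig1 (-0.07) turned negative.

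In all, 18 members reversed under some alternative. After centring, Mcm5 was -0.04, Pold1 -0.12, Pole -0.11, Rpa1 -0.05, Fen1 -0.08 and Lig1 -0.10. After quantile normalization Mcm5 was -0.01, Pold1 -0.05, Pole -0.12 and Rrm1 0.01. With array weights Pold1 was -0.01, Pole -0.02, Fen1 -0.01 and Lig1 -0.01. The mean of probe sets gave 0.07 for Rfc1, and the probe set of largest spread 0.02 for Mcm2 and -0.39 for Prim2. With Xist as a covariate Mcm3 was 0.02, Gins1 0.02 and Rrm1 0.14, and with only EGFRvIII replicates 3 and 4 they were 0.01, 0.02 and 0.14. Leaving out arrays gave ranges across 0 for Mcm5 (-0.04 to 0.23), Pold1 (-0.15 to 0.16), Pole (-0.10 to 0.13), Rfc1 (-0.22 to 0.02), Rfc2 (-0.29 to 0.03), Rfc3 (-0.70 to 0.45), Rfc4 (-0.01 to 0.34), Rfc5 (-0.27 to 0.03), Rpa1 (-0.13 to 0.28), Rpa2 (-0.05 to 0.32), Fen1 (-0.04 to 0.17), Lig1 (-0.03 to 0.12), Rrm1 (-0.14 to 0.11) and Tk1 (-0.67 to 0.16). The signal of dim members such as Orc1 and Tyms limits what can be said of them.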
